A study of Mus musculus with 2 samples.

Results

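The 10 genes described here encode 6 chemokines (Ccl2, Ccl7, Ccl9, Cxcl1, Cxcl5 and Cxcl14), 3 members of the interleukin-1 system (Il1b, Il1rn and Il1rl1) and interleukin-6 (Il6). They were chosen by symbol from the 19430 named genes of the count tables, and all 10 were found. Their transcripts were located in spatial transcriptomes of mouse fracture callus, in which each spot of a printed grid captures probes from a small area of tissue that can hold several cells. A unique molecular identifier (UMI) marks each captured probe pair, and levels are given as CPM, the UMIs of a gene per 1000000 UMIs of all genes in the same spots.

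The study placed a control and an Nf1-deficient callus side by side in a single block and profiled 2 sections of it. The control was a Postn-cre-negative Nf1[+/flox] mouse. The mutant, called Nf1Postn, was Postn-cre;Nf1[flox/-], so that both animals carried a floxed Nf1 allele, and the mutant carried a null allele in every cell in addition to Cre driven by the periostin promoter, which is active in periosteal and fibroblastic cells. Both were female littermates, fractured in the distal tibia around an intramedullary pin at 8 weeks of age and collected at day 10. After formalin fixation, mineral was removed with 14% EDTA over 3 days.

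Each genotype was thus represented by 1 callus. The labels call the 2 sections biological replicates, but the design text describes them as sections of calluses embedded together. No test between genotypes, regions or spots can be made with this design, and none is given. Both sections are given instead, and the 95% intervals (exact Poisson for a level, exact conditional binomial for a ratio) cover counting error only. The tables held 6380 spots under tissue. Section 1 had 1700 control spots with 1.36e+07 UMIs and 1341 Nf1Postn spots with 3.46e+06 UMIs, and section 2 had 1778 control spots with 1.21e+07 UMIs and 1556 Nf1Postn spots with 5.98e+06 UMIs. The median depth was 7053 and 5718.5 UMIs per spot in control and 2030 and 3239.75 in Nf1Postn for sections 1 and 2. Nf1 itself was at 87.8 CPM in control and 65.6 in Nf1Postn in section 1 and at 79.0 and 49.6 in section 2, lower in the mutant both times. Where its probes lie relative to the floxed exons is not given in the sources used here. The 2 calluses also differed in makeup: the summed level of 6 skeletal muscle markers was 13408 CPM in control and 62930 in Nf1Postn in section 1, and 21826 and 108735 in section 2, while 8 cartilage markers ran the other way, at 45786 against 4021 and 28867 against 8078. A lower level in a callus can therefore mean fewer cells of a type or less RNA per cell, and these cannot be told apart.

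Chemokines are small secreted proteins that steer leukocytes through G protein-coupled receptors. The CC members Ccl2 and Ccl7 attract monocytes through Ccr2, Ccl9 signals through Ccr1 and is made by osteoclasts and myeloid cells, Cxcl1 and Cxcl5 attract neutrophils through Cxcr2, and Cxcl14 is made constitutively by many epithelial and stromal cells. Il1b is a central inflammatory cytokine, Il1rn encodes its secreted receptor antagonist, Il1rl1 encodes the receptor for interleukin-33, and Il6 signals through the shared receptor subunit Il6st. A fracture first forms an inflamed hematoma, in which such signals recruit cells, before cartilage and then bone fill the gap.

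On the mm39 assembly, Ccl2 (81926397 to 81928280) and Ccl7 (81936538 to 81938352) are neighbors on chromosome 11, which also holds Ccl9 (83463745 to 83469463). Cxcl5 (90907219 to 90909484), Cxcl1 (91039100 to 91040975) and Il6 (30218112 to 30224980) lie on chromosome 5, Il1rn (24226865 to 24241507) and Il1b (129206490 to 129213060) on chromosome 2, Il1rl1 (40468730 to 40504576) on chromosome 1 and Cxcl14 (56436456 to 56444365) on chromosome 13. The upstream sequences of Ccl9 and Cxcl14 are shown because these genes gave the most UMIs and occupied different tissue. Each holds the 250 bases before the RefSeq start on the GRCm38.p6 assembly, minus strand, 5′ to 3′, from chr11:83578637-83578886 for Ccl9 and chr13:56296552-56296801 for Cxcl14, and capitals mark a match to the kappaB consensus on either strand.
Ccl9: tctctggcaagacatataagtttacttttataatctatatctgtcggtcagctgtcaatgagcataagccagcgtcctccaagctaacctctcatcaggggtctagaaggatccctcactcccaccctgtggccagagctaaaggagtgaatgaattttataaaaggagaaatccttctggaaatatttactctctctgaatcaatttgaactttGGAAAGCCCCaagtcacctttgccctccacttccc
Cxcl14: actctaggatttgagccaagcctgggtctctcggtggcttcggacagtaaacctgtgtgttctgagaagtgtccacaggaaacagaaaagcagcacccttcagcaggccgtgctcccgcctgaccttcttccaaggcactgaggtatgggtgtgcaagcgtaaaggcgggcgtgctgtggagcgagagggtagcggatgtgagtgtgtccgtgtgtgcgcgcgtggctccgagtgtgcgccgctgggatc
The match in Ccl9 begins 35 bases before the start, and Cxcl14 has none. The 7 members with an entry had 10 promoters, of which 3 held a match, 1 each of Cxcl1, Il6 and Ccl9, against 7.25% of all 32851 promoters of this length. Ccl2, Ccl7 and Cxcl5 had no entry. The G and C content was 43.6% for Ccl9 and 59.6% for Cxcl14. A match is a description of letters and not a binding site.

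UMIs were unevenly spread over the members, which sets what can be said of each. Over all spots, Cxcl14 had 7003 UMIs, Ccl9 3602, Ccl7 1002, Il1rn 938, Cxcl5 398, Il1b 314, Il1rl1 137, Cxcl1 124, Il6 78 and Ccl2 37. Cxcl14 ranked 737 among all genes. These totals depend on how well each probe binds, so they are not read as an order of expression between genes. All but Ccl2 and Il6 reached 50 UMIs in each section, the minimum for a comparison of genotypes, which left 8 of 10 members.

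Of these 8, Cxcl5 was at least 2-fold lower in Nf1Postn than in control in both sections, and no member was at least 2-fold higher in both. Among all 11852 genes that reached this minimum, 187 (1.58%) were lower and 499 (4.21%) higher by the same rule. The median log2 ratio of Nf1Postn over control was -0.09 over all these genes. Scaling by trimmed means of M values (TMM) moves this reference by 0.14 for the pooled ratios, by 0.28 in section 1 and by -0.03 in section 2, which is to be subtracted from the log2 ratios given here. Under it Cxcl5 was the only member called, too.

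**Figure D1:**
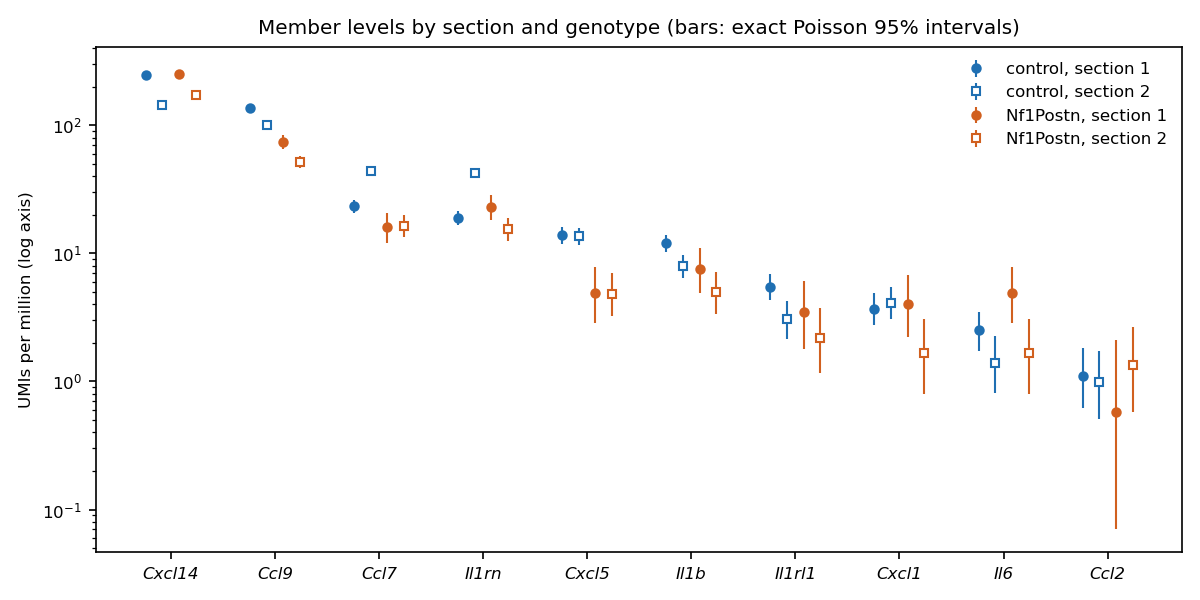
Level of each member in CPM (log axis) by section (filled circles section 1, open squares section 2) and genotype (blue control, orange Nf1Postn), with exact Poisson 95% intervals. Cxcl5 sat near 14 in both control sections and near 5 in both Nf1Postn sections, whereas Il1rn was high in the section 2 control callus alone.

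Cxcl5 was at 13.8 CPM in the section 1 control callus (187 UMIs) and at 13.6 in section 2 (165 UMIs), against 4.91 (17 UMIs) and 4.85 (29 UMIs) in Nf1Postn. The 4 values formed 2 pairs that did not overlap, and the sections of a genotype were nearly equal. The log2 ratio of Nf1Postn over control was -1.49 in each section and -1.49 pooled, with a 95% interval from -1.97 to -1.05. In control, 8.18% and 7.37% of spots held a Cxcl5 UMI, and in Nf1Postn 1.19% and 1.86%. After thinning to 1000 UMIs per spot these shares were 1.33% and 1.36% against 0.533% and 0.277%. The size depended on the tissue that was counted. Without the regions led by muscle or globin genes the log2 ratio was -1.06 in section 1 (12 Nf1Postn UMIs) and -0.79 in section 2 (18 Nf1Postn UMIs). Section 2 thus no longer reached 2-fold. The regions, described below, were left out by globin genes or a short list of muscle genes among their 5 leading genes. By this rule the Angptl7/Retnla region was kept here and below, although the muscle gene Chrne is among its leading genes. It held 234 and 142 Nf1Postn spots but 30 and 19 control spots in sections 1 and 2.

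Cxcl1, the other neutrophil-attracting member, gave too few UMIs for a like statement. It was at 3.69 CPM in control and 4.04 in Nf1Postn in section 1, and at 4.12 and 1.67 in section 2. The pooled log2 ratio was -0.62, with an interval from -1.32 to 0.04. A summed list of 10 neutrophil markers, none of them at 0, was higher in Nf1Postn in both sections. It was at 333 CPM in control against 636 in section 1 and 194 against 222 in section 2. Among the regions described below, the list was highest, at 1108 CPM, in the globin-led Hbb-bt/Hbb-bs region. Camp, a gene of the list, was also a leading gene there. That region held 281 and 195 Nf1Postn spots but 1 and 17 control spots in sections 1 and 2. The part of that region in the sum, and of the list in the levels of Cxcl5 and Cxcl1, was not tested. Cxcr2, the receptor of both, had 48 UMIs in all and fell short of the minimum.

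Among the CC members, Ccl9 was lower in Nf1Postn in both sections but just under 2-fold. It was at 135 CPM in control and 73.7 in Nf1Postn in section 1, and at 99.7 and 51.6 in section 2. Both control values lay above both Nf1Postn values. The log2 ratio was -0.87 and -0.95, and -0.99 pooled with an interval from -1.12 to -0.86. The summed level of 7 osteoclast markers moved the same way, from 7592 to 3599 CPM in section 1 and from 6355 to 1607 in section 2, with none of the 7 at 0. Its part in the Ccl9 level was not tested.

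Ccl7 was lower in Nf1Postn in both sections, by a margin that differed between them. It was at 23.2 CPM in control and 15.9 in Nf1Postn in section 1 (log2 ratio -0.55), and at 44.0 and 16.4 in section 2 (log2 ratio -1.42). The Nf1Postn values were alike, and the section 2 control callus stood above the rest. The pooled log2 ratio was -1.03 (interval from -1.29 to -0.78), and -0.56 without the regions led by muscle or globin genes. Ccl2, its genomic neighbor, had only 15 and 12 UMIs in control and 2 and 8 in Nf1Postn, at 1.11 and 0.990 CPM against 0.578 and 1.34, and no difference was detectable at this depth.

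Cxcl14 had nearly the same level in both calluses when all spots were pooled. It was at 247 CPM in control and 252 in Nf1Postn in section 1, and at 144 and 173 in section 2. Section 1 was the higher in both genotypes, and within each section the genotypes lay close together. The pooled log2 ratio was 0.02, with an interval from -0.05 to 0.10. This equality was a sum over unlike tissues, as the regional levels show, and without the regions led by muscle or globin genes the log2 ratio was 0.39.

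Il1b was lower in Nf1Postn in both sections, and its antagonist Il1rn was not. Il1b was at 11.9 CPM in control and 7.51 in Nf1Postn in section 1, and at 7.92 and 5.01 in section 2, with a pooled log2 ratio of -0.76 (interval from -1.20 to -0.34). The ratio was alike in both sections, -0.67 and -0.66, although the lower control value overlapped the higher Nf1Postn value within counting error. Without the regions led by muscle or globin genes the ratio was -0.50 in section 1 and 0.20 in section 2, so that its direction turned in section 2. Il1rn was at 18.9 CPM in control and 22.8 in Nf1Postn in section 1, and at 42.2 and 15.4 in section 2. Its log2 ratio thus changed sign between sections, from 0.27 (interval from -0.11 to 0.64) to -1.46 (interval from -1.79 to -1.13). The pooled ratio of -0.72 rests on section 2.

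The control callus of section 2 stood apart for Il1rn and Ccl7. Il1rn was 2-fold or more higher in section 2 than in section 1 within control (log2 ratio 1.16, interval from 0.94 to 1.38), which was true, in either direction, of only 87 (0.734%) of the 11852 genes. Ccl7 followed at 0.92, just under 2-fold. Cxcl5 differed by -0.02 between the control sections, Ccl9 by -0.44, Il1b by -0.59 and Cxcl14 by -0.78. Within Nf1Postn, where 3.18% of genes passed 2-fold between sections, Il1rn differed by -0.57 and Ccl7 by 0.04. The spread between sections of a single callus was therefore about as large as the difference between genotypes for Ccl7 and Il1rn, and far smaller for Cxcl5. Summed markers of several cell types were also highest in the section 2 control callus, but those of others were not. Neutrophil and B cell markers were lowest there, at 194 and 15.5 CPM. Osteoclast markers were highest in section 1 control. Mast cell markers and those of T and innate lymphoid cells were highest in section 1 Nf1Postn. The 10 macrophage markers, none at 0, were at 1016 CPM in control and 1083 in Nf1Postn in section 1 and at 1258 and 836 in section 2. The 7 fibroblast and periosteal progenitor markers were at 1572 and 1600 CPM in section 1 and at 1881 and 1198 in section 2. The 6 endothelial markers were at 641 and 664 CPM in section 1 and at 695 and 534 in section 2. Their part in the Ccl7 and Il1rn levels was not tested.

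Il1rl1 was at 5.46 CPM in control and 3.47 in Nf1Postn in section 1, and at 3.05 and 2.17 in section 2, from 74, 12, 37 and 13 UMIs. The pooled log2 ratio was -0.71, with an interval from -1.40 to -0.07, and each section's own interval included 0. Il6 was at 2.51 and 4.91 CPM in section 1 and at 1.40 and 1.67 in section 2, from 34, 17, 17 and 10 UMIs, with a pooled log2 ratio of 0.53 (interval from -0.20 to 1.23). No more than 3 Il6 UMIs fell in a single spot.

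To place the members in the tissue, spots were grouped into 15 regions by their expression, with the 10 members and all other listed genes left out. Regions are called by their leading genes, the genes with the largest ratio of their level in the region to that elsewhere. As these genes come from the same spots, regional levels are given as a description. The ranks that follow are among regions of at least 100 spots, with both genotypes together. Ccl7, Cxcl5, Il1rl1 and Cxcl1 were highest in the Crabp1/Gpnmb region and Cxcl14 and Il1b in the Cadm4/Cfd region. Ccl9 was highest in the Acp5/Siglec15 region and Il1rn in the Mmp3/Il1rn region. For Il1rn the first place was within counting error, since the Mmp3/Il1rn and Crabp1/Gpnmb regions were at 31.9 and 23.1 CPM in section 1 but at 61.5 and 68.6 in section 2, with overlapping intervals in each. For Cxcl1 the Mmp3/Il1rn region was at nearly the same level, 5.63 against 5.71 CPM. For Il1b and Il1rl1, the levels of the Crabp1/Gpnmb and Cadm4/Cfd regions had overlapping intervals. In control, Il1b was at 15.2 CPM in the Crabp1/Gpnmb region (128 UMIs) and 24.9 in the Cadm4/Cfd region (31 UMIs). Il1rl1 was at 8.09 CPM (68 UMIs) and 7.23 CPM (9 UMIs) in these regions, and Cxcl5 at 25.2 CPM (212 UMIs) and 28.9 CPM (36 UMIs). In Nf1Postn Cxcl5 was at 5.72 CPM (4 UMIs) and 9.19 CPM (8 UMIs) in them, and at 11.1 CPM (6 UMIs) in the Mmp3/Il1rn region. Ccl7 in Nf1Postn was at 25.8 CPM (18 UMIs) and 34.4 CPM (30 UMIs) in the same 2 regions. The first place of the Crabp1/Gpnmb region thus did not hold for Cxcl5 within either genotype, nor for Ccl7 within Nf1Postn, from small counts.

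**Figure D2:**
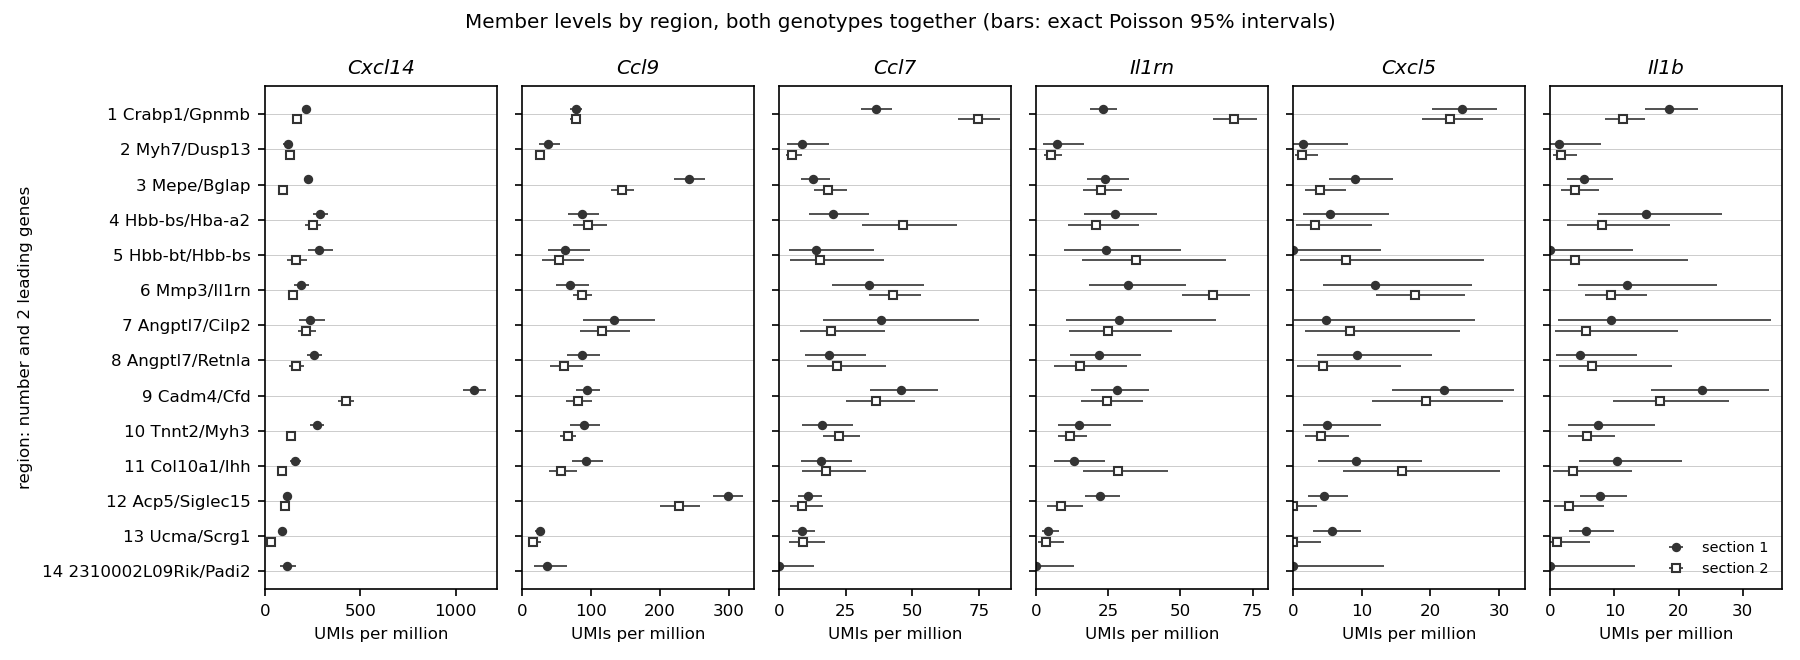
Level of 6 members in CPM (horizontal axes, linear) in each region of at least 100 spots, both genotypes together, with exact Poisson 95% intervals; filled circles are section 1 and open squares section 2. Cxcl14 peaked in the Cadm4/Cfd region, and Ccl9 in the Acp5/Siglec15 and Mepe/Bglap regions. Ccl7 and Cxcl5 were high in the Crabp1/Gpnmb region, and Il1rn was high in the Crabp1/Gpnmb and Mmp3/Il1rn regions in section 2.

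The Crabp1/Gpnmb region, with Ptgfr and Sfrp2 among its leading genes, held 333 and 366 control spots but only 22 and 44 Nf1Postn spots in sections 1 and 2. With both genotypes together it took 25.9% of all UMIs, but 54.3% of those of Cxcl5, 50.8% of Ccl7 and 50.7% of Il1rl1. The share was 45.1% for Il1rn, 43.0% for Il1b and 41.9% for Cxcl1. These shares also reflect that most spots of the region were control. Ccl7 was at 55.9 CPM there and Cxcl5 at 23.7. In the muscle-led Myh7/Dusp13 region these were at 5.70 and 1.27 CPM. A Ccl7 UMI was found in 33.3% of spots of the Crabp1/Gpnmb region (median depth 10968.5 UMIs) against 2.23% of the Myh7/Dusp13 region (median depth 3698), and after thinning in 5.10% against 0.393%. Ccl7 was the fourth of the leading genes of this region although it had no part in defining it.

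Within the Crabp1/Gpnmb region Ccl7, Cxcl5 and Il1rn were lower in the mutant. Ccl7 was at 38.1 CPM in control and 7.39 in Nf1Postn in section 1 (2 UMIs in the latter) and at 78.3 and 37.4 in section 2. The log2 ratio over both sections was -1.18, with an interval from -1.95 to -0.51, while the median over 10974 genes in this region was 0.01. Cxcl5 was at 26.3 CPM in the section 1 control spots, where the 22 Nf1Postn spots held 0 UMIs and the floor of 3 counts stands at 11.1 CPM. In section 2 Cxcl5 was at 24.2 CPM in control and 9.34 in Nf1Postn (4 UMIs). Il1rn was at 24.3 and 3.70 CPM in section 1 (1 UMI in Nf1Postn) and at 72.0 and 35.02 in section 2. All 3 genes were lower in the mutant in both sections, from small Nf1Postn counts.

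The Mmp3/Il1rn region was led by Mmp3, a matrix metalloproteinase, followed by Il1rn, which had no part in defining it. Il1rn was at 34.1 CPM in control and 28.8 in Nf1Postn there in section 1, and at 61.8 and 59.8 in section 2. The genotypes were therefore close within this region (log2 ratio -0.26, interval from -0.94 to 0.38). Its control spots numbered 51 in section 1 and 297 in section 2. Both this count and the Il1rn level of the Crabp1/Gpnmb control spots, 24.3 CPM in section 1 and 72.0 in section 2, moved with the higher Il1rn of the section 2 control callus.

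On the capture area, Ccl7 and Il1rn lay together in the lower part of the control callus in section 2, as did Cxcl5 and Il1rl1. For Cxcl5 and Il1rl1 the UMI-weighted median was 3.20 and 3.29 mm down there, from 165 and 37 UMIs. The UMI-weighted median position of the control spots was 2.30 mm across and 3.29 mm down for Ccl7 and 2.45 and 3.38 mm for Il1rn, against 2.5 and 2.08 mm for all UMIs. In section 1 the same medians were 3.25 and 2.25 mm for Ccl7 and 2.65 and 2.68 mm for Il1rn, against 2.95 and 2.17 mm for all UMIs. The 3 highest spots of each gene were section 2 control spots of the Crabp1/Gpnmb region, with 23, 15 and 13 UMIs for Il1rn and 15, 14 and 10 for Ccl7. One of these spots was shared, holding 15 Ccl7 and 13 Il1rn UMIs. In section 2 control, 33.0% of the 309 spots with a Ccl7 UMI also held an Il1rn UMI, against 12.05% of the 1469 without, but the former were deeper (median 8448.5 against 5342 UMIs). In section 1 control these shares were 18.3% and 11.1%.

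**Figure D3:**
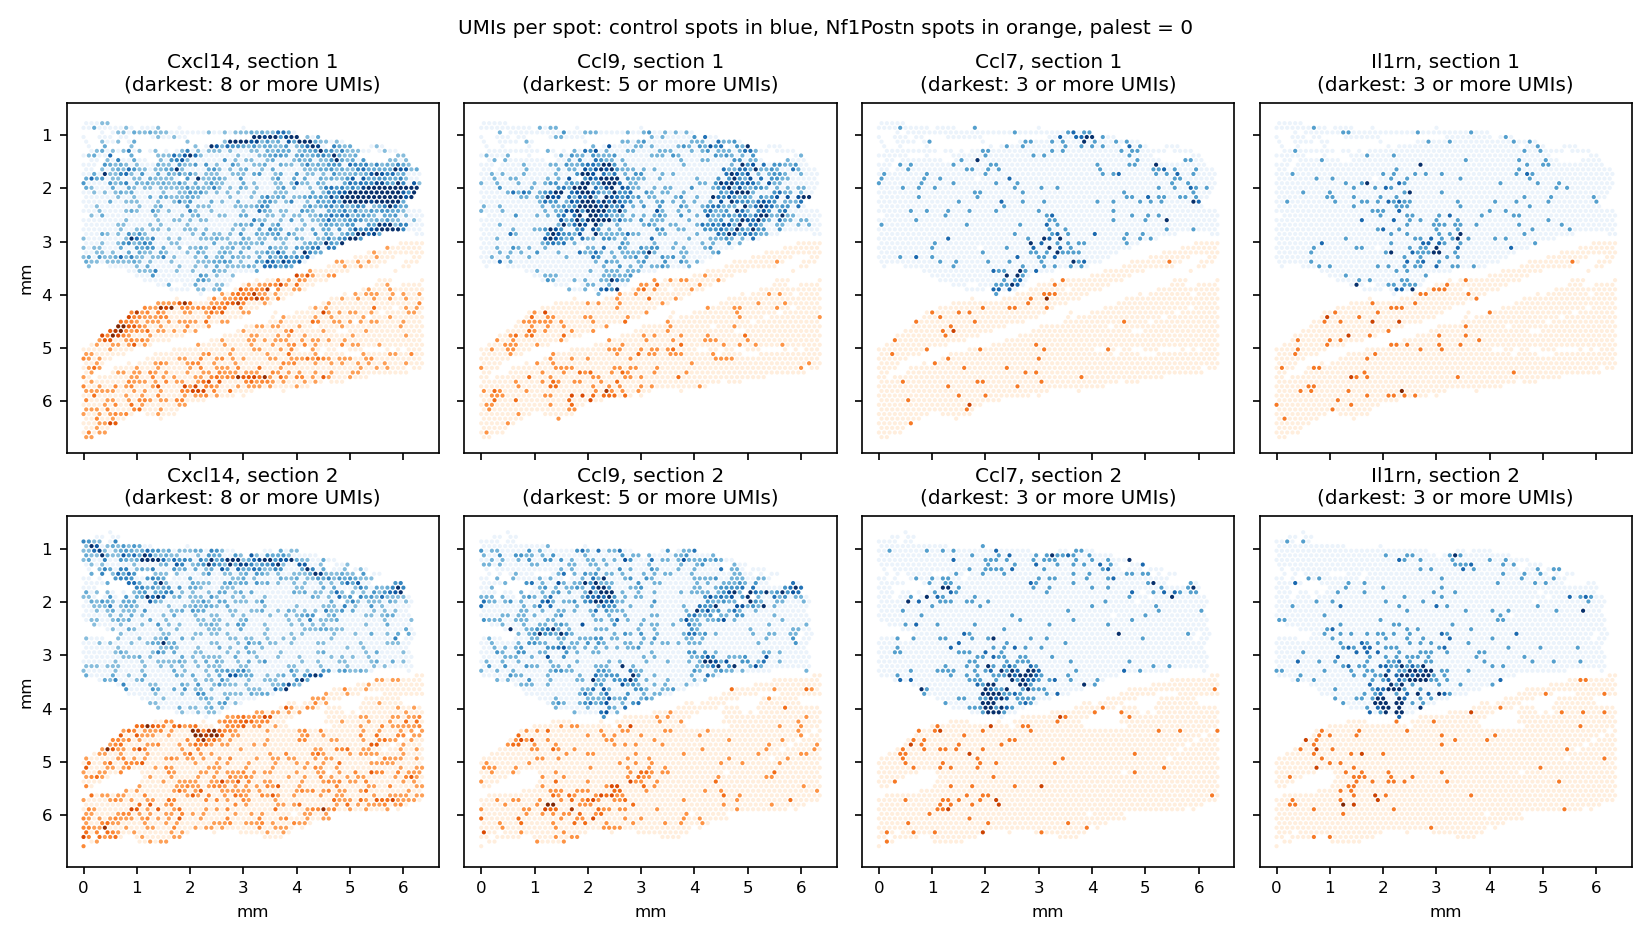
UMIs of Cxcl14, Ccl9, Ccl7 and Il1rn in every spot with a genotype, drawn at its place on the capture area (both axes in mm), section 1 above and section 2 below, control in blue and Nf1Postn in orange, with the darkest shade at the UMI number given over each panel. In section 2 Ccl7 and Il1rn gathered in the lower part of the control callus. Ccl9 formed bands to the left and right of its center, and Cxcl14 lay at its right end in section 1 and along its upper rim in section 2.

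Spots with a UMI of these genes tended to neighbor each other. In control, 24.5% (section 1) and 36.9% (section 2) of the neighbors of Ccl7-positive spots were positive, against 12.3% and 13.3% of the neighbors of other spots. For Il1rn it was 21.5% and 32.3% against 11.2% and 12.8%. For Cxcl5 it was 24.8% and 18.97% against 6.88% and 6.40%, and for Il1rl1 14.4% and 10.5% against 3.11% and 1.72%. Spots with a UMI were deeper than the others in each of these cases, for Cxcl5 in section 1 with medians of 9609.5 and 6667 UMIs, and the part of depth was not tested. In Nf1Postn the counts were small, with 16 and 29 Cxcl5-positive spots.

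Ccl9 followed bone and osteoclast-rich tissue in control, which held most spots of these regions. It was at 277 CPM in the Acp5/Siglec15 region (301 CPM in section 1 control and 228 in section 2 control), whose leading genes Acp5, Mmp9 and Ocstamp are osteoclast genes, and at 192 CPM in the Mepe/Bglap region, whose leading genes Mepe, Dmp1 and Sost are osteocyte genes. The lowest levels were 28.8 CPM in the Myh7/Dusp13 muscle region and 23.1 in the Ucma/Scrg1 cartilage region. The Acp5/Siglec15 region held 10.0% of all UMIs and 27.0% of those of Ccl9. A Ccl9 UMI was present in 86.0% of its spots (median depth 10974) and in 28.4% of the still deeper spots of the Ucma/Scrg1 region (median depth 12753.5), and after thinning in 24.6% and 2.33%. The 7 osteoclast markers summed to 21418 CPM in the Acp5/Siglec15 region and 12197 in the Mepe/Bglap region, the highest of all regions.

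The Acp5/Siglec15 region was almost confined to control, with 209 and 89 control spots and 3 and 0 Nf1Postn spots. In the Mepe/Bglap region, which had 46 Nf1Postn spots, Ccl9 was at 203 CPM in control and 44.4 in Nf1Postn (13 UMIs), a log2 ratio of -2.19 (interval from -3.11 to -1.41; -1.73 and -2.17 by section). In the Cadm4/Cfd region the ratio was -0.86 (-0.82 and -0.90 by section). In the Crabp1/Gpnmb region it was 0.13, with an interval that included 0. Weighted over all regions with at least 20 spots of each genotype, the ratio within regions was -0.58. The -0.99 of the whole calluses also covers the Acp5/Siglec15 region and others short of this minimum. The 2 values thus rest on different spots, and their gap is not read as an effect of matching regions. Within Nf1Postn, Ccl9 in the Mepe/Bglap region was below the Tnnt2/Myh3 muscle region (87.6 CPM, 119 UMIs) and the Crabp1/Gpnmb region (84.4 CPM, 59 UMIs). It was above the Myh7/Dusp13 muscle region (27.6 CPM, 72 UMIs). The bone pattern of control was therefore not seen in Nf1Postn.

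**Figure D4:**
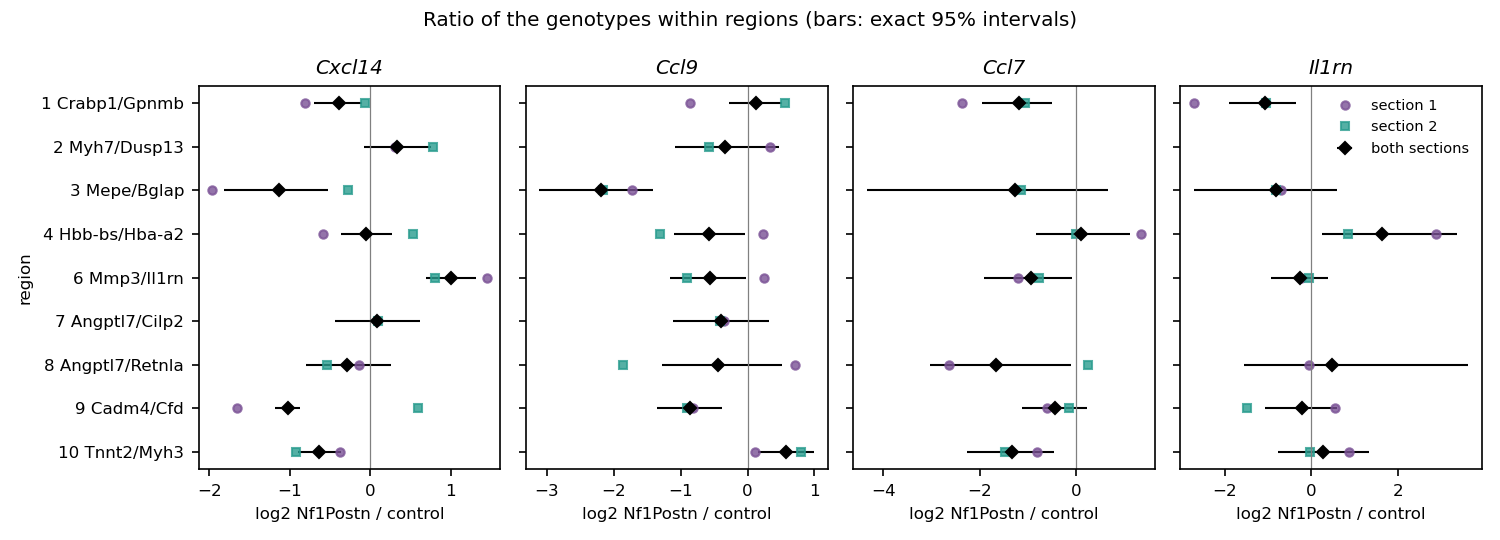
Log2 ratio of Nf1Postn over control within each region of at least 100 spots with 20 or more of each genotype, for Cxcl14, Ccl9, Ccl7 and Il1rn (diamonds, both sections with exact 95% intervals; circles section 1; squares section 2; genes with under 20 UMIs in a region left out). Ccl9 was lowest in the Mepe/Bglap region and Cxcl14 changed sign between regions.

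Cxcl14 was concentrated in the Cadm4/Cfd region, where it was at 801 CPM, and a log2 ratio of 2.32 set this region above the rest of the tissue. It held 6.02% of all UMIs and 24.2% of those of Cxcl14. A Cxcl14 UMI was present in 77.7% of its spots and 38.7% after thinning, against 37.6% and 10.7% in the Myh7/Dusp13 region. The leading genes of this region were Cadm4, Cfd, Cxcl14, Gap43 and Lgi4. The region summed to 1296 CPM of 6 adipocyte markers, which include Cfd, and to 1770 CPM of 10 macrophage markers. It also had 2868 CPM of 7 fibroblast and periosteal progenitor markers, 966 CPM of 6 endothelial markers and 150 CPM of 7 mast cell markers. Each of these sums was the highest of all regions. The lowest Cxcl14 level was 71.8 CPM in the Ucma/Scrg1 cartilage region.

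Cxcl14 in the Cadm4/Cfd region was above its whole-callus level in both sections and genotypes, but by far the most in section 1 control. It was at 1498 CPM in 125 control spots of section 1 but 349 in 90 control spots of section 2. In 103 and 77 Nf1Postn spots it was at 474 and 524 CPM. The whole calluses were at 247 and 144 CPM in control and 252 and 173 in Nf1Postn. The 3 spots with the most Cxcl14, at 51, 49 and 48 UMIs, were section 1 control spots of this region. The log2 ratio of Nf1Postn over control was -1.66 in section 1 and 0.59 in section 2, so that no direction can be given. In the Mmp3/Il1rn region Cxcl14 was higher in Nf1Postn in both sections (log2 ratios 1.45 and 0.80, 127 CPM in control and 254 in Nf1Postn pooled), and in the Tnnt2/Myh3 muscle region lower in both (-0.38 and -0.93).

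Distance from the fracture plane was taken from the authors' spot labels, which give 1344 section 1 control spots of the skeletal tissue a step from 0 at the plane to 25. Cxcl14 was higher in every bin than in the bin before it, from 111 CPM at steps 0 to 4 through 146, 180 and 374 to 687 CPM at steps 20 to 25. None of the 5 intervals overlapped. Ccl9 was at 54.5 CPM nearest the plane and 87.2 at steps 5 to 9, reached 254 at steps 10 to 14 and 233 at steps 15 to 19, and was at 139 in the last bin. Median depth went the other way over much of the range, from 10974.5 UMIs per spot in the first bin to 6480.25 in the last. Distances in section 2 and in the mutant were not analysed here, so this order is that of 1 section.

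**Figure D5:**
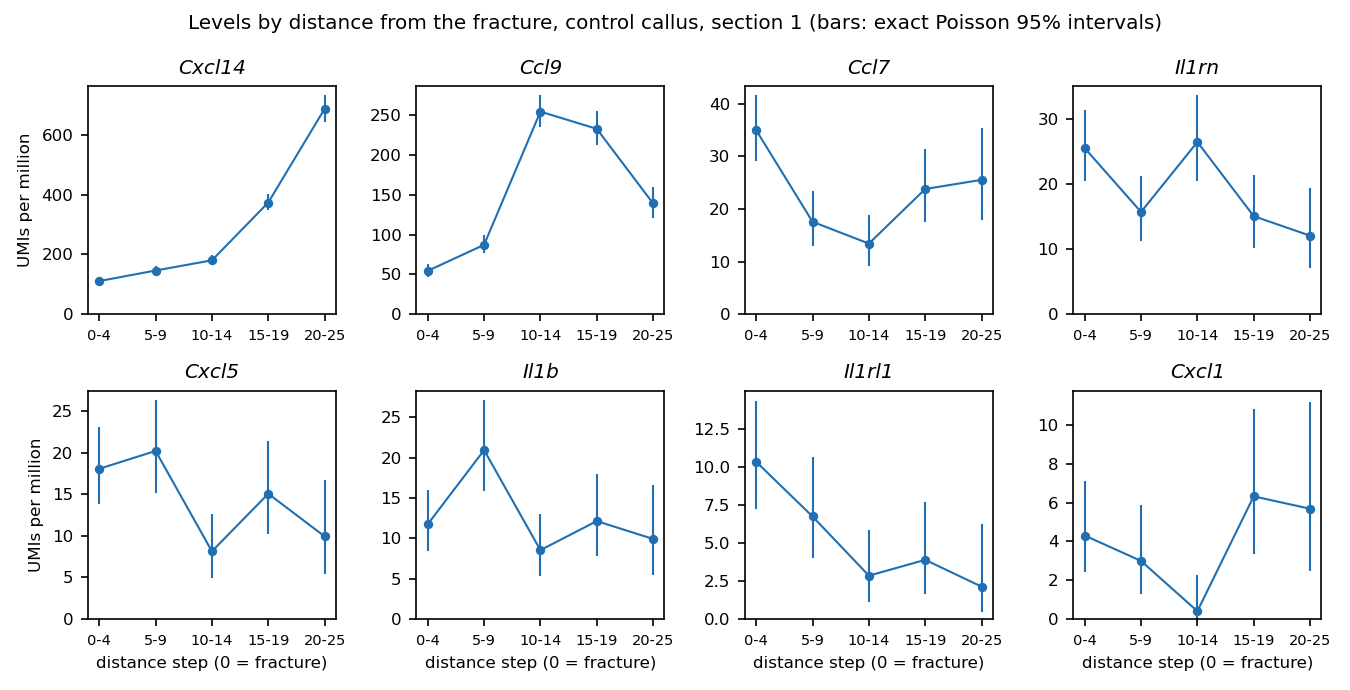
Level of 8 members in CPM (vertical axes, linear from 0) against distance from the fracture plane in 5 bins of the authors' steps, section 1 control callus, with exact Poisson 95% intervals. Cxcl14 climbed from 111 to 687, Ccl9 was highest in the middle bins, and Il1rl1 was highest next to the plane.

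Il1rl1 ran opposite to Cxcl14, at 10.3 CPM (36 UMIs) in the first bin, 6.73 in the second and 2.85, 3.89 and 2.13 in the others, from 3 to 8 UMIs each. Ccl7 was at 34.98 CPM nearest the plane, 13.4 in the middle bin and 25.6 in the last, with the first and middle intervals apart. Cxcl5 was at 18.1 and 20.2 CPM in the first 2 bins and between 8.14 and 15.1 beyond. Il1b was at 11.8 CPM in the first bin, 21.0 in the second and 8.55 to 12.2 in the rest, and Il1rn between 12.1 and 26.5 with no single direction. Cxcl1 had 1 UMI in the middle bin and was otherwise between 2.99 and 6.32 CPM with overlapping intervals.

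The authors' own clusters of the same spots placed the members as follows. Cxcl14 was at 1027 CPM in 146 spots of the Progenitor cluster and between 119 and 319 CPM in the others. The Progenitor cluster was also highest for Ccl7 (59.5 CPM, 46 UMIs), Il1b (32.3 CPM, 25 UMIs) and Cxcl5 (29.8 CPM, 23 UMIs). For Cxcl5 the interval overlapped that of Ossifying perichondrium (22.2 CPM, 121 UMIs). Il1rn (24.6 CPM, 19 UMIs), Cxcl1 (12.9 CPM, 10 UMIs), Il1rl1 (12.9 CPM, 10 UMIs) and Ccl2 (3.88 CPM, 3 UMIs) were highest there too, with intervals that overlapped those of other clusters. Ccl9 was at 284 CPM in 466 Woven bone spots, 64.1 in Cartilage and 62.8 in Ossifying perichondrium. These clusters were made from the expression of the same spots and are therefore a description too.

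Spots were also classed by rows from a border. The outermost row holds every spot that lacked any of its 6 neighboring spots. Gaps inside the tissue and the frame of the capture area therefore count as borders, and the rows do not set the outside of a callus against its interior alone. By this measure Cxcl14 was higher in the outer rows of both calluses. In control it was at 311 CPM in the outermost row of spots and 219 at 4 or more rows in for section 1, and at 183 and 101 for section 2. In Nf1Postn these were 266 and 171 for section 1 and 225 and 123 for section 2. The outermost row was above the spots 4 or more rows in in all 4 cases, with intervals that did not overlap. The rows between were at 279, 195, 294 and 218 CPM. Ccl9 was the reverse in the section 1 control callus, at 105 CPM in the outermost row and 160 inside. It showed no such gap in section 2 control, at 101 and 104 CPM. In Nf1Postn it was at 77.7 and 74.6 CPM in section 1. In section 2 Nf1Postn it was at 36.9 and 58.0 CPM, with intervals that just overlapped. Ccl7 in control was at 42.4 CPM in the outermost row and 30.1 inside, with sections pooled.

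The other genes of these pathways were counted on lists of related symbols. Of 15 other CC chemokines measured, 6 reached the minimum and 1 was at least 2-fold higher in Nf1Postn in both sections. This was Ccl25, a chemokine of thymus and gut, at 2.51 CPM in control against 5.20 in section 1 and 4.12 against 8.52 in section 2. With TMM factors it was no longer called, and Ccl8 and Cxcl12 were called lower in both sections. The most abundant on this list, Ccl8, was at 120 CPM in control and 64.99 in Nf1Postn in section 1 and at 140 and 38.4 in section 2 (log2 ratios -0.89 and -1.87). Of 11 other CXC, CX3C and XC chemokines 5 reached the minimum and none passed 2-fold in both sections. Cxcl12, the stromal ligand of Cxcr4, came close with log2 ratios of -0.90 and -1.15, at 528 against 283 CPM and 488 against 220. Median log2 ratios were -0.06 and -0.10 for the 2 lists, near the -0.09 of all genes.

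Of 23 chemokine receptors 8 reached the minimum and none passed 2-fold in both sections, with a median log2 ratio of -0.40. The most abundant was the scavenging receptor Ackr3, at 73.7 CPM in control against 43.3 in section 1 and 54.8 against 46.6 in section 2. Ccr1, the receptor for Ccl9, had log2 ratios of -0.73 and -0.80 from 134 UMIs in all, and Ccr2, the receptor for Ccl2 and Ccl7, 0.75 and -0.01. These 2 receptors were named after their values were seen, because they bind members.

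No gene passed 2-fold in both sections among the other interleukin-1 family ligands (2 of 8 tested), the interleukin-1 family receptors and inhibitors (5 of 8), the interleukin-1 processing and signaling genes (9 of 10) or the interleukin-6 family and its receptors (11 of 12). Il33, the ligand of Il1rl1 and the most abundant of the first list, was at 11.5 CPM in control and 36.1 in Nf1Postn in section 1 and at 16.7 and 22.4 in section 2 (log2 ratios 1.65 and 0.43). Il1r1, the signaling receptor of Il1b, was at 77.5 against 68.7 CPM and 77.4 against 43.1. Gsdmd, the pore former through which Il1b leaves the cell, was at 96.4 against 127 CPM and 114 against 80.9. Il6st had log2 ratios of 0.19 and -0.23. Of 17 genes that respond to interleukin-1 or NF-kB, 14 were tested and 1, Ptgs2, was at least 2-fold lower in both sections. Ptgs2, the inducible enzyme of prostaglandin synthesis, was at 68.6 CPM in control and 14.2 in Nf1Postn in section 1, and at 61.1 and 15.04 in section 2, a pooled log2 ratio of -2.14. Mmp13, a collagenase and the most abundant of this list, had log2 ratios of -0.63 and -1.79.

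The 4 members with at least 500 UMIs were compared with all such genes across 196 blocks of the capture area, within section and genotype. The blocks share libraries and depth, and the correlations are descriptions. Ccl9 was most like Cd68, a lysosomal glycoprotein of macrophages and osteoclasts (r = 0.64), then Laptm5 (0.61), Tmtc2 (0.57) and Glb1 (0.56). Ccl7 was most like Dpep2 (0.58), Ctsb (0.58), Ctss (0.56) and Pirb (0.55), among them the cathepsins B and S. Il1rn was most like Ctss (0.58), Psap (0.54), Cd84 (0.54) and Dpep2 (0.51), sharing Ctss and Dpep2 with Ccl7. The values of Dpep2 are means over several identifiers. Cxcl14 was most like Gdf10 (0.55), Ntrk2 (0.54), Serping1 (0.54) and C4b (0.53), the last 2 of which belong to the complement system. Among the members themselves, the closest pairs were Ccl7 with Il1rn (0.50) and Ccl7 with Cxcl5 (0.47). This order held in section 2 (0.58 and 0.46, 101 blocks) but turned in section 1 (0.38 and 0.48, 95 blocks) and with blocks of 4 rows by 8 columns (0.27 and 0.35, 419 blocks). Among marker lists, Ccl9 was closest to osteoclast markers (0.58) and Il1rn to macrophage markers (0.44). Cxcl14 was closest to mast cell markers (0.47), with endothelial markers near (0.44). Il6 had r = 0.49 with erythroid markers, but its 78 UMIs fall short of the 500 set here. The part of spot depth in that value was not tested. Ccl7 was closest to macrophage markers (0.49), but fibroblast and periosteal progenitor markers came near (0.46).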

How the data were processed

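Visium sections of formalin-fixed mouse callus were probed for messenger RNA. The authors aligned the reads to mm39 with Space Ranger 1.3.0, as the submitters' processing notes give them, and deposited unnormalized UMI counts of each gene in each spot. The deposited values were handled like expected counts, since 10 rows that join several identifiers are not whole. They were rounded only for thinning. 1 row without a gene name was left out (6.81e-05% and 3.76e-05% of UMIs). Genotype labels and spot positions were used as deposited, and 5 spots without a genotype were left out. Distances and clusters of the authors were joined by barcode and used only as labels. The sections share 2711 spot barcodes because the printed layouts are alike.

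UMIs were summed over spots and divided by all UMIs of these spots. A gene was called where it was at least 2-fold higher or lower the same way in both sections, among genes with a sum of 50 UMIs or more in section 1 and also in section 2. Values under 3 counts were set to 3 for this call. Regions came from log2(CPM + 1) of 16693 genes, centered per section, 20 principal components, 15 neighbors and Leiden clustering at resolution 0.5 (leidenalg 0.10.2, python-igraph 0.11.9). Spots shallower than 1000 UMIs were left out of thinned shares. No doublet caller was run, since a spot can hold several cells. Likeness was Pearson's r of log2(CPM + 10) over blocks of 6 rows by 12 columns with at least 15 spots. Genes named are the members, on each list the most abundant gene and at most 3 called genes each way, and for each member the 4 genes with the highest r. The members and lists were chosen with earlier results of these data known. Alternatives were other scalings, depth filters, clusterings, position classes and block sizes, each section alone, and, added after seeing the data, leaving out the highest spots. On simulated data of 11852 genes, 200 were changed, some by 4-fold and the rest by less. The call recovered 100% of the 4-fold changes in Nf1Postn over control. Recovery of the smaller changes is not given here. The call was made for 0.00858% of unchanged genes, and intervals covered 95.4% to 95.7% of true ratios. Simulated counts had no spread beyond counting error. Python 3.11.15, numpy 2.4.6, scipy 1.17.1 and pandas 2.3.3 were used.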

Additional observations from a re-analysis of the deposited data

Results flagged for a closer look

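In 6 pairs of regions, the ratio of Nf1Postn over control of a member ran in opposite directions. Both sections of the first region were above 0 and both of the second below 0, and the pooled interval of each region excluded 0. Further pairs met the rule by section but not by interval. An example is Cxcl14 in the Myh7/Dusp13 region (0.31 and 0.78 by section) against the Mepe/Bglap region. These differences were not tested. The share of all genes with such pairs is not given, so the count is not read as a trait of the members. Some section ratios were near 0, such as -0.06 for Cxcl14 in the Crabp1/Gpnmb region in section 2. For Ccl9, the Tnnt2/Myh3 muscle region had a log2 ratio of 0.57 (0.11 and 0.80 by section), which exceeded that of the Mepe/Bglap region (-2.19) by 2.76 and that of the Cadm4/Cfd region (-0.86) by 1.43. For Cxcl14, the Mmp3/Il1rn region had a log2 ratio of 1.00, which exceeded that of the Mepe/Bglap region (-1.13) by 2.14, that of the Tnnt2/Myh3 region (-0.63) by 1.64 and that of the Crabp1/Gpnmb region (-0.39) by 1.40. For Il1rn, the Hbb-bs/Hba-a2 region, led by globin genes, had a log2 ratio of 1.64 (2.89 and 0.86 by section), which exceeded that of the Crabp1/Gpnmb region (-1.08) by 2.72. The former ratio rests on 5 control and 28 Nf1Postn UMIs, with an interval from 0.24 to 3.36. The latter rests on 16 Nf1Postn UMIs.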

How the results depend on the processing

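Cxcl5, Ccl7, Ccl9 and Il1b were lower in Nf1Postn under each of 9 alternatives, with log2 ratios from -1.85 to -0.43, -1.42 to -0.55, -2.05 to -0.58 and -1.29 to -0.21. Il1rn and Cxcl1 were lower in 8 of 9, Il1rl1 in 8 of 9 and Cxcl14 in 4 of 9. With each section alone, the log2 ratio ranged from -1.42 to -0.55 for Ccl7, -1.30 to 0.13 for Cxcl1, 0.028 to 0.26 for Cxcl14 and -1.46 to 0.27 for Il1rn. Without regions led by muscle or globin genes it was -0.56 for Ccl7, -0.84 for Ccl9, -0.90 for Cxcl5, 0.39 for Cxcl14, -0.21 for Il1b and -0.34 for Il1rn. The Angptl7/Retnla region, mostly of Nf1Postn spots and with the muscle gene Chrne among its leading genes, was not left out. As a mean over spots of log2(CPM + 1), a difference on another scale, it was -0.76 for Ccl7, -2.05 for Ccl9, -0.43 for Cxcl5, -0.88 for Cxcl14 and -0.28 for Il1b. With spots thinned to 1000 UMIs it was -0.62 for Ccl7, -0.12 for Cxcl14, -1.29 for Il1b and 0.0044 for Il1rl1. With TMM factors it was -1.13 for Ccl9 and -0.11 for Cxcl14, and within regions weighted by control UMIs -0.58 for Ccl9 and -0.49 for Cxcl14. The cause of these moves was not tested. Leaving out the highest spots, added after seeing the data, moved none of the 8 past its interval.

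Over all genes, 3189 were higher with no filter on low counts, 305 higher with a minimum of 200 UMIs per section, and 319 lower with TMM factors. With each section alone 698 to 764 were higher and 272 to 731 lower. Of the members, none was called lower with a minimum of 200 UMIs per section, since Cxcl5 then fell below the minimum, and 1 to 4 with each section alone (Ccl7, Cxcl1, Cxcl5 and Il1rn in section 2). Of the listed genes, 0 were higher and 3 lower with TMM factors (Ccl8, Cxcl12 and Ptgs2), and 2 to 6 were higher and 1 to 8 lower with each section alone. Of 48 alternatives for the highest region of a member against the rest, 29 stayed within its interval and all kept the direction, with the closest to 0 at 0.09 for Il1rl1 at resolution 1.0. At that resolution Ccl7 was at 0.76, and at resolution 0.3 Cxcl14 was at 0.74. The closest genes by likeness often changed with block size or section. No paired analysis was possible because no test was run, and the genotypes were instead compared within each section. Low counts limit Ccl2, Il6, Cxcl1 and Il1rl1, most of all in the shallower Nf1Postn spots.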
